A study of Hordeum vulgare with 12 samples.

Results

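The response of wild-type (WT) barley root apices to zeocin was read from 6 poly(A) RNA libraries, the 3 mock and the 3 zeocin libraries of *cv.* Sebastian, out of 12 libraries in all. Sebastian is a spring barley cultivar and the parent of *hvatr.g*, a TILLING mutant of the ATR gene, whose 6 libraries make up the rest. Embryos of both genotypes were dissected from mature seeds and grown for 7 days, and the seedlings were then kept for 6 h in liquid medium without zeocin (mock) or with 500 µg/ml zeocin. The tips of the roots, labelled as root apical meristems, were cut off and frozen, so each library is RNA of a mixed piece of tissue. Of the 83990 rows of the count table, each a transcript model taken as a gene, 26039 passed a filter on low counts and were tested.

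Zeocin is a bleomycin-type antibiotic that cuts DNA and leaves single and double strand breaks. In Arabidopsis, breaks and stalled forks are signalled by the kinases ATM and ATR to the NAC transcription factor SOG1, which raises repair genes and inhibitors of cyclin-dependent kinases. Genes used in S phase and mitosis fall when the meristem cells stop dividing, and this pair of movements is what the plant DNA damage response is known for.

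Total counts of the 6 libraries ran from 36100439 to 41862795, and the 100 most abundant rows took between 13.26% and 14.96% of each. Pearson correlations of log2 CPM across genes lay between 0.958 and 0.985. Mock 3 and zeocin 3 stood apart from the other 4 together. The first principal component, 39.2% of the variance, carried loadings of 0.48 for mock 3 and 0.62 for zeocin 3 against -0.44 to -0.06 for the rest, and the second, 28.5%, separated all mock (0.28 to 0.48) from all zeocin libraries (-0.50 to -0.18). Libraries of equal number deviated together, and processing differences tied to a number cannot be told apart from plants grown together. Of the markers of the tissue that carry a description, genes described as Scarecrow or AP2-like factors were present in all 6 libraries, and the 1 chlorophyll a-b binding protein gene tested had at most 0.481 CPM. CPM, the unit of levels here, are counts scaled to a common library size, and they are not divided by gene length, so levels of different genes are not compared here.

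Zeocin raised 292 genes (1.12% of those tested) and lowered 235 (0.902%), by the quasi-likelihood test of edgeR (Benjamini-Hochberg adjusted), where a call needs both an adjusted p below 0.05 and a change of 1 or more on the log2 scale. In 526 of these 527 genes the 3 zeocin libraries lay wholly above or wholly below the 3 mock libraries, against 14.6% of all tested genes. The calls were made on the same libraries, so this separation largely follows from them and is not added evidence. The same holds where single called genes are said below to separate the groups. The rises were larger. Their median log2 fold change was 2.05, and 150 of them reached 2 and 41 reached 4, whereas the median of the falls was -1.42 and 17 reached -2 and 2 reached -4. Rises and falls also differed in level. When the tested genes were ordered by mean level and cut into 4 equal parts, the lowest part, up to 1.53 CPM, held 79 raised and 9 lowered genes, and the part up to 9.09 CPM 97 and 71. From 9.09 to 35.4 CPM the order turned, with 69 raised and 102 lowered genes, and above 35.4 CPM there were 47 and 53. The median standard error was 0.489 in the lowest part and 0.135 in the highest. A gene near 0 in 1 group could also pass the filter through another group. The share of these limits in the differences of size and level was not tested. Called genes lay on all 7 chromosomes, from 0.951% (2H) to 1.37% (3H) of the tested genes raised and from 0.661% (3H) to 1.27% (1H) lowered. The count of lowered genes was 150 without mock 2 and 125 without zeocin 1, and the count of raised genes was 190 when the 6 WT libraries were fitted alone.

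**Figure D1:**
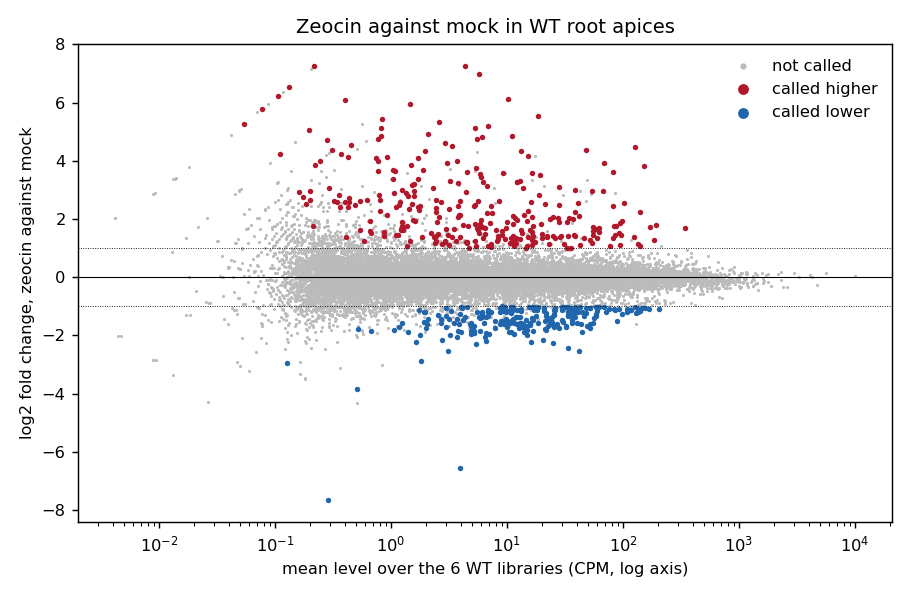
Each point is a gene, with its mean level over the 6 WT libraries in CPM (log axis) and its log2 fold change in zeocin against mock, and dotted lines at 1 and -1. The raised genes (red) reach larger changes and lower levels than the 235 lowered genes (blue), and 1 of the 292 raised genes is not reported here and is left out.

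Among regulators of the damage response, the genes for the sensing kinases were not called and 3 SOG1-like NAC genes rose. ATM had 52.2, 48 and 24 CPM in mock and 45.7, 44.4 and 30 CPM in zeocin 1 to 3, and its log2 fold change was -0.05 ± 0.25 (adjusted p = 0.981). ATR was at 13.3, 15.4 and 9.85 CPM and 11.4, 13.9 and 9.68 CPM, with a log2 fold change of -0.14 ± 0.21 (adjusted p = 0.902). The ranges overlapped in both, and mock 3 and zeocin 3 were the lowest library of their group. WEE1, a kinase that inhibits cyclin-dependent kinases, changed by 0.08 ± 0.10 (adjusted p = 0.882) from 32.7, 33.1 and 30.5 CPM to 33, 32.5 and 36.1 CPM. SOG1 itself had 10.2, 9.33 and 6.44 CPM in mock and 8.97, 9.51 and 7.47 CPM in zeocin, a log2 fold change of -0.00 ± 0.17 (adjusted p = 0.999) with overlapping groups. The SOG1-like genes SGL.A, SGL.C and SGL.D, a class that in Arabidopsis holds ANAC044 and ANAC085, all rose. SGL.A went from 3.67, 3.35 and 5.77 CPM to 16.3, 24.7 and 14.1 CPM, a log2 fold change of 2.11 ± 0.24 (adjusted p = 0.000487). SGL.C and SGL.D, which are neighbours on chromosome 2H, rose by 3.70 ± 0.41 (adjusted p = 0.00039) and by 1.32 ± 0.16 (adjusted p = 0.000651). The lowest zeocin library lay above the highest mock library in all 3 genes. SGL.B did not pass the filter. Of the 16 check point genes of the catalogue none was called, and the nearest was RAD17, the clamp loader of the check point, with 7.02, 7.3 and 6.36 CPM in mock, 9.53, 11.6 and 10.6 CPM in zeocin and a log2 fold change of 0.62 ± 0.12 (adjusted p = 0.0165). Their median was 0.03, beside 0.00 over all tested genes. The gene described as the cyclin-dependent kinase inhibitor SMR3 (HORVU.MOREX.r3.4HG0414340), a target of SOG1 in Arabidopsis, did rise, from 11.1, 9.61 and 15.3 CPM to 69.9, 77 and 63.4 CPM, with a log2 fold change of 2.55 ± 0.23 (adjusted p = 7.75e-05).

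The catalogue of barley DDR genes was built by homology to Arabidopsis and not on these libraries. It had 322 tested genes in 325 rows, of which 16 rose and 12 fell, or 8.62% of the rows against 2.02% of all tested genes. The median over the catalogue was 0.01, and 167 rows lay above and 158 below 0. By pathway, homologous recombination had 7 raised and 4 lowered of 60 genes, nucleotide excision repair 4 and 3 of 41, mismatch repair 3 and 5 of 39 rows and the catalogue's DNA replication group 4 and 6 of 49. The 4 lowered genes of homologous recombination were 2 without mock 2 and 2 without zeocin 2. Pathways share members, so these counts are not independent. Translesion synthesis had 1 raised and 2 lowered of 18 genes, and non-homologous end joining 1 raised of 8. None of the 30 genes for chromatin and RNA-directed DNA methylation factors was called.

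Genes that act on broken ends, or on proteins bound to them, were among the larger rises of the catalogue. A gene described as tyrosyl-DNA phosphodiesterase 1 (HORVU.MOREX.r3.2HG0164790), an enzyme that removes topoisomerase stuck to DNA, had 9.29, 9.24 and 6.46 CPM in mock and 136, 171 and 76 CPM in zeocin. Its log2 fold change of 3.93 ± 0.30 (adjusted p = 1.93e-05) was the largest in the catalogue. MRE11.B, a homolog of the nuclease subunit of the complex that binds break ends, went from 0.265, 0.31 and 0.481 CPM to 2.49, 2.45 and 2.36 CPM and rose by 2.78 ± 0.37 (adjusted p = 0.0013). HELICASE.A, a DNA/RNA helicase, rose from 32.1, 32.2 and 24.6 CPM to 168, 230 and 125 CPM, by 2.56 ± 0.22 (adjusted p = 6.7e-05). All 3 separated the groups in every library, and zeocin 2 was the highest and zeocin 3 the lowest for the first and the last of them, whereas the 3 zeocin libraries of MRE11.B were nearly equal. PARP2, which adds poly(ADP-ribose) at nicks, rose by 3.63 ± 0.26 (adjusted p = 1.32e-05) with 138, 213 and 107 CPM in zeocin against 14.2, 13.3 and 9.45 CPM. NSE4A.B, a subunit of the SMC5/6 complex that holds damaged chromatids together, had 2.53, 2.7 and 3.18 CPM in mock and 9.03, 9.76 and 9.42 CPM in zeocin, a rise of 1.74 ± 0.17 (adjusted p = 0.000162). It was the called gene of the SMC5/6 group, in which the other 7 rows did not pass the test.

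BRCA1 and its partner BARD1 moved in opposite directions. BRCA1 rose from 10.7, 13.4 and 7.64 CPM to 24, 45.7 and 18.7 CPM, by 1.48 ± 0.31 (adjusted p = 0.0221), and zeocin 2 was the highest library. BARD1 fell from 17.8, 23.3 and 12.5 CPM to 7.32, 6.56 and 6.66 CPM, with a log2 fold change of -1.38 ± 0.27 (adjusted p = 0.0131). The BRCA1 call was lost without zeocin 2 (log2 fold change 1.02, adjusted p = 0.0596), without mock 1 (0.0783), without mock 3 (0.0719) and in the fit of the 6 WT libraries alone (0.112). The BARD1 call was lost without mock 2 (adjusted p = 0.065), zeocin 1 (0.0575) and zeocin 2 (0.0564). RecQl3, a helicase of the RecQ family that unwinds recombination intermediates, rose from 12.8, 9.64 and 8.76 CPM to 21.2, 27.5 and 18.2 CPM, by 1.10 ± 0.19 (adjusted p = 0.00744), close to the threshold. Its log2 fold change was below the threshold of 1 without zeocin 2, at 0.93, and just below it without mock 3, where it rounds to 1.00. With the 6 WT libraries alone its adjusted p was 0.0521.

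**Figure D2:**
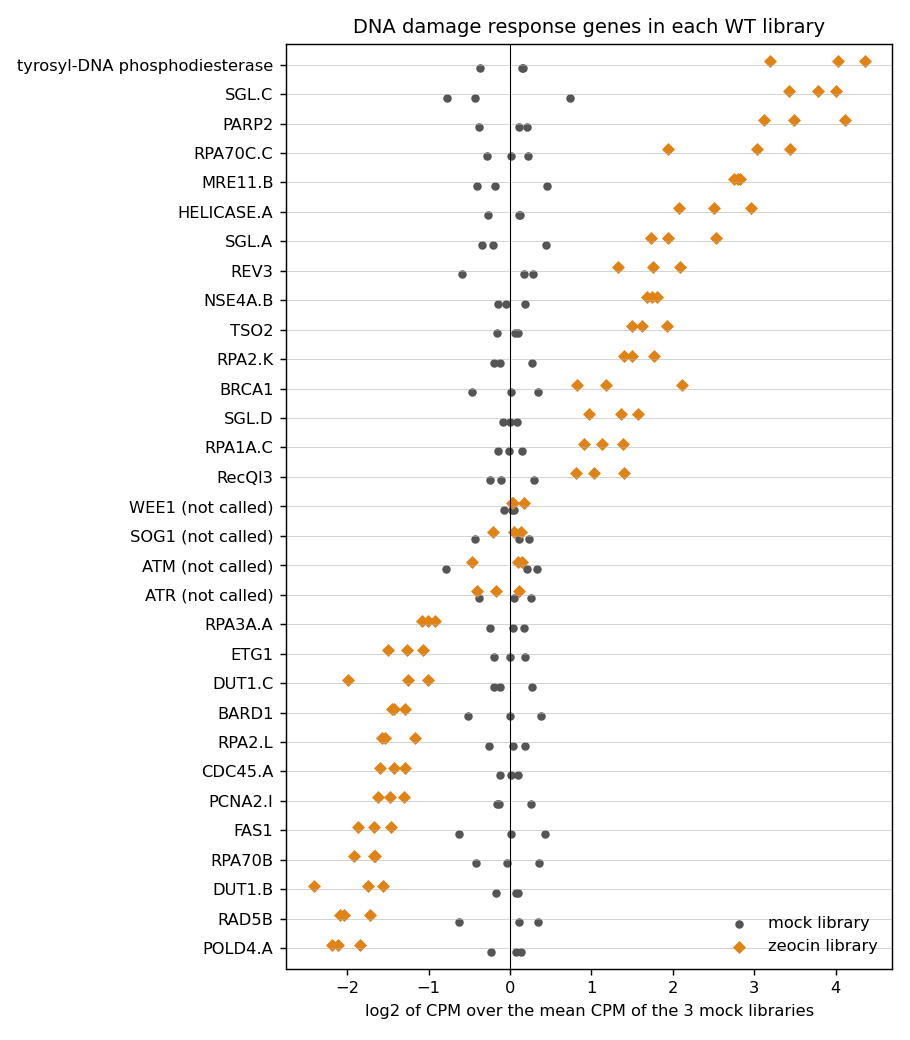
Each row is a gene of the DDR catalogue and each point a WT library, plotted as log2 of its CPM over the mean of the 3 mock libraries (grey circles mock, orange diamonds zeocin). The 27 called genes shown separate the groups completely, from POLD4.A at the bottom to the tyrosyl-DNA phosphodiesterase gene at the top, and WEE1, SOG1, ATM and ATR do not. The calls rest on these libraries, so the separation largely follows from them.

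Subunits of replication protein A (RPA), the trimer that coats single-stranded DNA in replication and in repair, split into both directions. Of 16 tested RPA genes 3 rose, 3 fell and 10 were not called. RPA70C.C, a large subunit, had 1.04, 0.845 and 1.2 CPM in mock and 8.41, 11.2 and 3.93 CPM in zeocin and rose by 2.93 ± 0.39 (adjusted p = 0.00138). RPA2.K, a middle subunit, rose from 28.7, 27.2 and 37.7 CPM to 82.2, 106 and 88.3 CPM (1.56 ± 0.14, adjusted p = 7.75e-05) and RPA1A.C, another large subunit, from 37.4, 33.3 and 30.4 CPM to 73.9, 88.1 and 63.5 CPM (1.16 ± 0.14, adjusted p = 0.000761). On the other side, the large subunit RPA70B fell from 78.3, 103 and 60.1 CPM to 25.4, 25.2 and 21.3 CPM (-1.75 ± 0.27, adjusted p = 0.00364). The middle subunit RPA2.L changed by -1.41 ± 0.21 (adjusted p = 0.00305) and the small subunit RPA3A.A by -1.01 ± 0.13 (adjusted p = 0.000953). Both directions thus occurred within the large and within the middle subunit. RPA3A.A stood at the threshold, and its log2 fold change rounds to -1 but misses the threshold with replicate number as a block within genotype, and was -0.99 without mock 2, -0.90 without mock 3 and -0.96 without zeocin 2.

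Genes of nucleotide supply moved in both directions as well. TSO2, the small subunit of ribonucleotide reductase, which makes deoxyribonucleotides, rose from 144, 173 and 168 CPM to 498, 614 and 457 CPM, by 1.69 ± 0.13 (adjusted p = 2.56e-05). The large subunit RNR1.B had 140, 175 and 95.2 CPM in mock and 260, 399 and 194 CPM in zeocin. It missed the threshold with a log2 fold change of 1.06 ± 0.28 (adjusted p = 0.0745) and passed it with replicate number as a block within genotype (1.04, adjusted p = 0.00042). It also passed with replicate number as an overall block (adjusted p = 0.00515), with DESeq2 (0.00646), without the filter (0.0153) and without zeocin 3 (0.0259). Each of these fits makes 2 raised genes in this group, of which 5 were tested in the reported fit. Genes for dUTPase, the enzyme that keeps uracil out of DNA, fell. DUT1.B went from 61.2, 74 and 72.6 CPM to 20.6, 13 and 23.4 CPM (-1.87 ± 0.20, adjusted p = 0.000379) and DUT1.C from 46.1, 48.3 and 63.7 CPM to 22.1, 13.2 and 26.1 CPM (-1.36 ± 0.22, adjusted p = 0.00428). Zeocin 2 was the lowest library in both.

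Several genes of the replication fork fell. POLD4.A, a small subunit of DNA polymerase delta, had 8.85, 11 and 11.5 CPM in mock and 2.41, 2.29 and 2.91 CPM in zeocin, and its log2 fold change of -2.04 ± 0.20 (adjusted p = 0.000162) was the lowest in the catalogue. PCNA2.I, a copy of the sliding clamp, fell from 22.2, 29.3 and 21.8 CPM to 7.93, 8.77 and 9.88 CPM (-1.46 ± 0.17, adjusted p = 0.000597). PCNA2.D, the other tested copy of the 11 in the catalogue, was at 110, 159 and 87.4 CPM in mock and 113, 164 and 81.6 CPM in zeocin (0.01 ± 0.25, adjusted p = 0.997). The other 9 copies did not pass the filter, and reads of near-identical copies may have been assigned to either. CDC45.A, part of the replicative helicase, changed by -1.43 ± 0.22 (adjusted p = 0.00364), and ETG1, a partner of the MCM ring needed for sister chromatid cohesion in Arabidopsis, by -1.27 ± 0.20 (adjusted p = 0.00414). Of 5 genes described as DNA helicase all lay below 0 and 3 were called, at log2 fold changes of -1.18 to -1.02. None of the 5 was called without mock 2 or without zeocin 1, and all 5 were without mock 3. RAD5B, a translesion helicase, fell from 11.9, 14 and 7.1 CPM to 3.34, 2.67 and 2.58 CPM (-1.94 ± 0.29, adjusted p = 0.00309), while REV3, the catalytic subunit of the translesion polymerase zeta, rose from 45.8, 42.6 and 25 CPM to 128, 161 and 95 CPM (1.76 ± 0.23, adjusted p = 0.0013). FAS1, the chromatin assembly factor that loads histones behind the fork, fell by 1.66 ± 0.30 (adjusted p = 0.00866), from 49.7, 66.8 and 31.9 CPM to 17.9, 15.5 and 13.5 CPM.

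Kinesins, the motor proteins of the spindle and the phragmoplast, gave 15 of the 235 lowered genes. Of 22 tested genes described as kinesins, 15 fell, 1 rose and 6 were not called, with a median of -1.40 on the log2 scale. The descriptions exist only for genes that the study listed, most of them because they had responded in these libraries, so the direction of such a list is not independent evidence. Of the 1593 tested genes with a description 33% were called, 18.3% raised and 14.8% lowered, and shares called in lists by description are to be read against these values. The strongest fall was that of HORVU.MOREX.r3.2HG0174320, from 24, 31.6 and 24.5 CPM to 6.73, 4.02 and 6.38 CPM, a log2 fold change of -2.22 ± 0.26 (adjusted p = 0.000684). HORVU.MOREX.r3.6HG0627910 had 35.5, 40.2 and 33.1 CPM in mock and 12.8, 10.1 and 14.9 CPM in zeocin (-1.53 ± 0.20, adjusted p = 0.00134), and HORVU.MOREX.r3.4HG0386980 went from 4.87, 6.17 and 4.78 CPM to 1.68, 1.63 and 1.98 CPM (-1.58 ± 0.23, adjusted p = 0.00219). No zeocin library reached a mock library in these genes. The kinesin that rose, HORVU.MOREX.r3.4HG0400920, had 10, 12.1 and 6.28 CPM in mock and 21.7, 33.3 and 14.7 CPM in zeocin (1.29 ± 0.28, adjusted p = 0.0275). Its call was lost when any library other than mock 2 or zeocin 3 was left out, with adjusted p of 0.0724 to 0.0925, and in the fit of the 6 WT libraries alone (0.154). The count of lowered kinesins was 9 without mock 2 and 8 without zeocin 1. RNA of dissected tips cannot tell fewer dividing cells from less RNA in each of them.

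Part of the genes of the spindle and of the mitotic check point fell. Of 15 tested genes described with TPX2, spindle, microtubule or Polychome, 9 fell, 6 were not called and 2 of these lay above 0, and the median was -1.33. HORVU.MOREX.r3.4HG0397020 is described as a member of the TPX2 family, whose founding member activates the Aurora kinase at the spindle, and it fell from 12.7, 13.5 and 13.2 CPM to 5.02, 2.87 and 5.07 CPM (-1.60 ± 0.25, adjusted p = 0.00387). Both genes described as Polychome, UV-B-insensitive 4, an inhibitor of the anaphase-promoting complex in Arabidopsis, fell. HORVU.MOREX.r3.2HG0174860 had 12.9, 15.4 and 14.1 CPM in mock and 4.34, 3.8 and 5.65 CPM in zeocin (-1.62 ± 0.21, adjusted p = 0.00129), and HORVU.MOREX.r3.6HG0590050 had 7.31, 9.55 and 7.96 CPM and 2.69, 1.32 and 2.53 CPM (-1.92 ± 0.39, adjusted p = 0.0166). The second lost its call without mock 2 (adjusted p = 0.0692), zeocin 1 (0.0532) or zeocin 2 (0.0647). BUBR1 (HORVU.MOREX.r3.6HG0573950) of the spindle check point fell by 1.12 ± 0.20 (adjusted p = 0.00835), with 9.56, 9.79 and 14.9 CPM in zeocin against 22.3, 27.4 and 25 CPM, and was not called without zeocin 1 (adjusted p = 0.0561). MAD2 of the same check point passed the adjusted p but not the fold threshold (-0.78 ± 0.15, adjusted p = 0.0125). The gene described as microtubule-associated protein 65-1 (HORVU.MOREX.r3.3HG0234060), which bundles microtubules, had the highest value of the list (1.19 ± 0.44, adjusted p = 0.247), at 1.76, 1.78 and 3.39 CPM and 4.54, 6.17 and 5.07 CPM. The 9 lowered genes became 4 without mock 2 and without zeocin 1, and 5 without zeocin 2.

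The same terms can be read from lists whose members were chosen on the *hvatr.g* libraries, which share no sample with this comparison. The terms themselves were taken because the study lists them for WT. Of 18 genes listed there under microtubule-based movement, 15 fell in WT, with a median of -1.49 and all 18 below 0. Of 15 genes under nuclear division 8 fell (median -1.18), of 37 under cell cycle 19 (median -1.18), and of 25 under DNA replication 13 (median -1.07), and every member was below 0. The shares lowered were 83.3%, 53.3%, 51.4% and 52% in this order. They are to be read against all 559 genes lowered in *hvatr.g*, of which 39% were called lowered in WT. Of these 559, 544 were below 0 in WT, so the common sign largely follows from how the lists were chosen. Of 7 raised DNA replication genes listed there 6 rose in WT (85.7%, against 60.4% of all genes raised in *hvatr.g*). Leaving out zeocin 1 lowered the count under cell cycle to 7, under nuclear division to 3, under DNA replication to 8 and under microtubule-based movement to 8. Without zeocin 2, cell cycle fell to 11 and nuclear division to 4, and without mock 2 cell cycle fell to 11, DNA replication to 7 and microtubule-based movement to 9.

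Genes described as histones (H1, H2A, H2B, H3 or H4) held more lowered genes than any other list by description, and theirs was also the longest of these lists. The share lowered was higher among kinesins (15 of 22) and in the spindle list (9 of 15). The RNA of core histones is made in S phase. All 131 tested genes described as histones were listed by the study and all 131 were also called lowered in *hvatr.g*, so they are not all histone genes and their common sign follows from how they were chosen. They lay between -2.53 and -0.56 with a median of -0.99. In all 100 passed the adjusted p, and 58 of these passed the fold threshold as well. These 58 are 44.3% of the 131, near the 39% of all genes lowered in *hvatr.g* that were called lowered in WT. The H2A gene HORVU.MOREX.r3.6HG0558870 went from 17.9, 18.1 and 19.3 CPM to 4.77, 4.27 and 5.29 CPM, a log2 fold change of -1.95 ± 0.14 (adjusted p = 1.32e-05), the smallest adjusted p of all lowered genes. The H2A gene HORVU.MOREX.r3.5HG0522380 fell by 1.70 ± 0.18 (adjusted p = 0.000289) and the H3 gene HORVU.MOREX.r3.7HG0654460 by -1.12 ± 0.13 (adjusted p = 0.000611). The last of them opens a run of 4 lowered H3 genes that are neighbours on 7H. Because the median sat at the threshold, the count moved with single libraries, to 27 without mock 3, 36 without zeocin 1, 36 without zeocin 2 and 98 without zeocin 3. Within each replicate number the fall was similar, with a median difference of -0.87 for zeocin 1 against mock 1, -1.15 for number 2 and -1.01 for number 3. Copies of histone genes are near identical, so counts of single copies are uncertain.

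Histone-lysine methyltransferases, which write marks on histone tails, fell in 4 of 6 tested genes and rose in 1. The gene described as specific for H3 lysine-36 (HORVU.MOREX.r3.7HG0640980) had 38, 42.9 and 43.6 CPM in mock and 9.39, 6.34 and 10.5 CPM in zeocin, a log2 fold change of -2.25 ± 0.28 (adjusted p = 0.000914). HORVU.MOREX.r3.6HG0548870 fell from 15.8, 19.4 and 14.7 CPM to 6.67, 5.49 and 6.03 CPM (-1.45 ± 0.21, adjusted p = 0.00219), HORVU.MOREX.r3.4HG0403230 by -1.99 ± 0.38 (adjusted p = 0.0125) and HORVU.MOREX.r3.3HG0237870 by -1.61 ± 0.35 (adjusted p = 0.027). The last lost its call when any library other than mock 3 was left out (adjusted p of 0.0778 to 0.117), and the gene before it without zeocin 2 (adjusted p = 0.0593). The raised gene, described as specific for H3 lysine-9 (HORVU.MOREX.r3.7HG0650320), had no count in any mock library and 0.336, 0.221 and 0.076 CPM in zeocin. The zeocin mean was at least 2.67-fold higher when each mock library is set to a floor of 3 counts, but zeocin 3 itself lay near that floor. The adjusted p of this gene, 0.034, rose to between 0.0719 and 0.12 without any library other than zeocin 3.

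**Figure D3:**
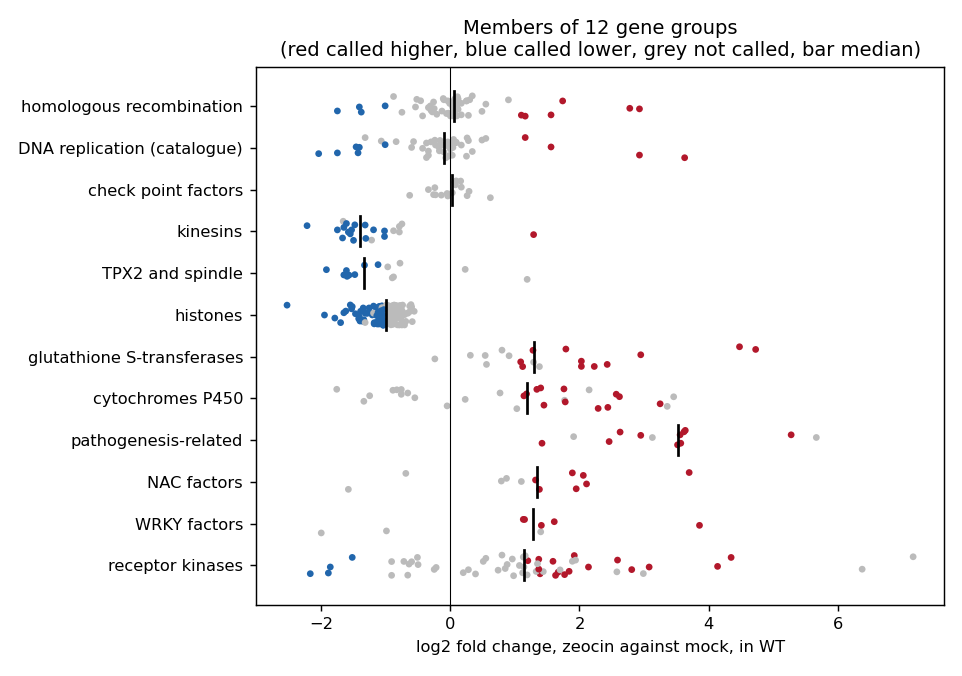
Each point is a tested gene of 1 of 12 groups, placed by its log2 fold change in zeocin against mock in WT (red raised, blue lowered, grey not called), with the median as a black bar. Kinesin, spindle and histone genes lie left of 0, apart from 1 kinesin and 2 spindle genes, with medians of -1.40, -1.33 and -0.99, the repair, replication and check point groups have medians of 0.05, -0.10 and 0.03, and the 6 groups from glutathione S-transferases down have medians above 1 with members on both sides of 0 in all but the pathogenesis-related genes. The kinesin, spindle and histone groups and those 6 rest on descriptions, most of which exist for genes that had responded. Their medians are therefore not comparable with those of the repair, replication and check point groups, which were made by homology. 1 gene not reported here is left out.

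Glutathione S-transferases, which couple glutathione to reactive compounds, rose in 11 of 19 tested genes, fell in none and had a median of 1.29. The smallest adjusted p of all genes belonged to HORVU.MOREX.r3.3HG0324100, with 10.3, 10.9 and 11.3 CPM in mock and 251, 250 and 223 CPM in zeocin (4.48 ± 0.14, adjusted p = 1.44e-08). HORVU.MOREX.r3.3HG0320140 went from 11.5, 10.5 and 15 CPM to 89.6, 81 and 116 CPM (2.95 ± 0.18, adjusted p = 4.6e-06). HORVU.MOREX.r3.3HG0319710 rose by 2.03 ± 0.15 (adjusted p = 1.72e-05) and HORVU.MOREX.r3.1HG0066370 by 1.79 ± 0.14 (adjusted p = 2.24e-05). Libraries of the same group differed little in these genes, as the standard errors of 0.14 to 0.18 show. The lowest member was the gene described as T3 (HORVU.MOREX.r3.7HG0703570), with 12.4, 4.68 and 9.11 CPM in mock, 9.81, 4.16 and 8.23 CPM in zeocin and overlapping groups (-0.24 ± 0.41, adjusted p = 0.921). Cytochromes P450, which oxidise hormones and foreign compounds, rose in 12 of 29 tested genes and fell in none (median 1.18). HORVU.MOREX.r3.6HG0627890 rose from 24.8, 30.2 and 21.3 CPM to 140, 172 and 100 CPM (2.44 ± 0.20, adjusted p = 4.19e-05) and HORVU.MOREX.r3.1HG0049500 from 42.2, 35.8 and 41.1 CPM to 141, 156 and 107 CPM (1.76 ± 0.19, adjusted p = 0.000302).

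Glycosyltransferases, which attach sugars to small molecules, rose in 11 of 32 tested genes and fell in 3. HORVU.MOREX.r3.3HG0282740 had 22.4, 14.4 and 22.7 CPM in mock and 287, 380 and 182 CPM in zeocin (3.83 ± 0.27, adjusted p = 1.32e-05). HORVU.MOREX.r3.1HG0092830 was near 0 in mock, with 0.241, 0.394 and 0.24 CPM, and reached 20.4, 25.7 and 14.8 CPM (6.12 ± 0.41, adjusted p = 9.08e-06). HORVU.MOREX.r3.2HG0188800 had no count in mock and 0.589, 0.524 and 0.203 CPM in zeocin, with a group mean at least 5.55-fold higher by the same floor of 3 counts. The 11 raised genes were 6 in the fit of the 6 WT libraries and 7 with limma-voom, and the 3 lowered genes were 1 without mock 2 and 1 without zeocin 1. Of 14 genes described as ABC or DETOXIFICATION transporters 4 rose and 10 were not called, a share of 28.6% called against 33% of described genes. The pleiotropic drug resistance ABC transporter HORVU.MOREX.r3.3HG0288800, of a family that exports toxic compounds, rose from 0.193, 0.169 and 0.0267 CPM to 4.43, 4.22 and 3.39 CPM (4.91 ± 0.45, adjusted p = 9.23e-05). HORVU.MOREX.r3.2HG0208670 of the heavy metal transport/detoxification superfamily rose by 2.21 ± 0.27 (adjusted p = 0.000715) and its neighbour HORVU.MOREX.r3.2HG0208660 by 1.25 ± 0.22 (adjusted p = 0.00723). Among 8 oxidoreductase genes, all above 0, 3 were called (37.5%). The NADPH:quinone oxidoreductase HORVU.MOREX.r3.3HG0321720 had 8.9, 4.93 and 11.9 CPM in mock and 73.9, 97.2 and 34.1 CPM in zeocin (2.99 ± 0.37, adjusted p = 0.000854). An internal alternative NAD(P)H-ubiquinone oxidoreductase (HORVU.MOREX.r3.2HG0134640), a mitochondrial bypass of complex I, rose from 1.52, 1.1 and 0.881 CPM to 9.25, 6.51 and 3.44 CPM (2.45 ± 0.43, adjusted p = 0.00802).

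Peroxidases had 1 raised and 1 lowered gene of 22 tested (9.09% called) and a median of -0.70. HORVU.MOREX.r3.3HG0291910 rose from 51.2, 34 and 57.4 CPM to 172, 90.8 and 148 CPM (1.52 ± 0.23, adjusted p = 0.00282), and HORVU.MOREX.r3.6HG0551230 fell from 4.9, 4.4 and 4.27 CPM to 0.617, 0.744 and 1.65 CPM (-2.16 ± 0.34, adjusted p = 0.00406). The number of lowered peroxidases was 6 with the block within genotype and 5 with DESeq2.

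Genes of pathogen defence rose without a pathogen being part of the design. Of 13 tested genes described as pathogenesis-related or similar, 10 rose, and all 13 were above 0 with a median of 3.52. They include a stretch of chromosome 5H where 15 genes lie between HORVU.MOREX.r3.5HG0444080 and HORVU.MOREX.r3.5HG0444220, of which 8 were tested and 7 called raised. PR1 is a secreted marker protein of salicylic acid defence. The PR1 gene HORVU.MOREX.r3.5HG0444150 had 3.64, 1.89 and 3.63 CPM in mock and 52.2, 12.6 and 41 CPM in zeocin, and rose by 3.52 ± 0.44 (adjusted p = 0.000871). HORVU.MOREX.r3.5HG0444110 went from 0.796, 0.761 and 1.2 CPM to 16.2, 4.25 and 12.1 CPM (3.56 ± 0.42, adjusted p = 0.000658), and the gene described as major allergen d 1 (HORVU.MOREX.r3.5HG0444140) from 1.52, 1.04 and 1.68 CPM to 26.4, 5.51 and 18.8 CPM (3.57 ± 0.47, adjusted p = 0.00129). Zeocin 2 was the lowest zeocin library in all 7 called genes and mock 2 was low in most, and still the groups did not overlap. In *hvatr.g* 2 of these genes were called, and the difference between the genotypes had unadjusted p down to 0.00329 and adjusted p of at least 0.543. All 7 genes called in WT stood higher in every *hvatr.g* mock library than in any WT mock library. They were also higher in *hvatr.g* zeocin than in WT zeocin. HORVU.MOREX.r3.5HG0444150 had 29, 21.6 and 29.4 CPM in *hvatr.g* mock and 73.3, 86 and 78.2 CPM in *hvatr.g* zeocin. The 10 raised genes were 6 without mock 2, without zeocin 1, with limma-voom and in the fit of the 6 WT libraries. Reads of such tandem copies may be shared.

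A second stretch, on 3H from HORVU.MOREX.r3.3HG0315700 to HORVU.MOREX.r3.3HG0315890, holds 20 genes, of which 8 were tested and 5 raised. These are 4 genes described as glycine-rich cell wall structural protein 2 and 1 described as HOPW1-1-interacting 2 (HORVU.MOREX.r3.3HG0315820), which went from 4.41, 2.65 and 6.11 CPM to 91.9, 83.4 and 101 CPM (4.38 ± 0.43, adjusted p = 0.000162). The 4 glycine-rich genes were low in mock, at most 0.561 CPM, and their log2 fold changes ran from 2.88 to 5.12. Without mock 1 only 2 of the 4 kept their call, and HORVU.MOREX.r3.3HG0315700 lost it in the fit of the 6 WT libraries (adjusted p = 0.0551). Zeocin 2 was the lowest zeocin library in 4 of these 5 genes too, but by small margins.

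**Figure D4:**
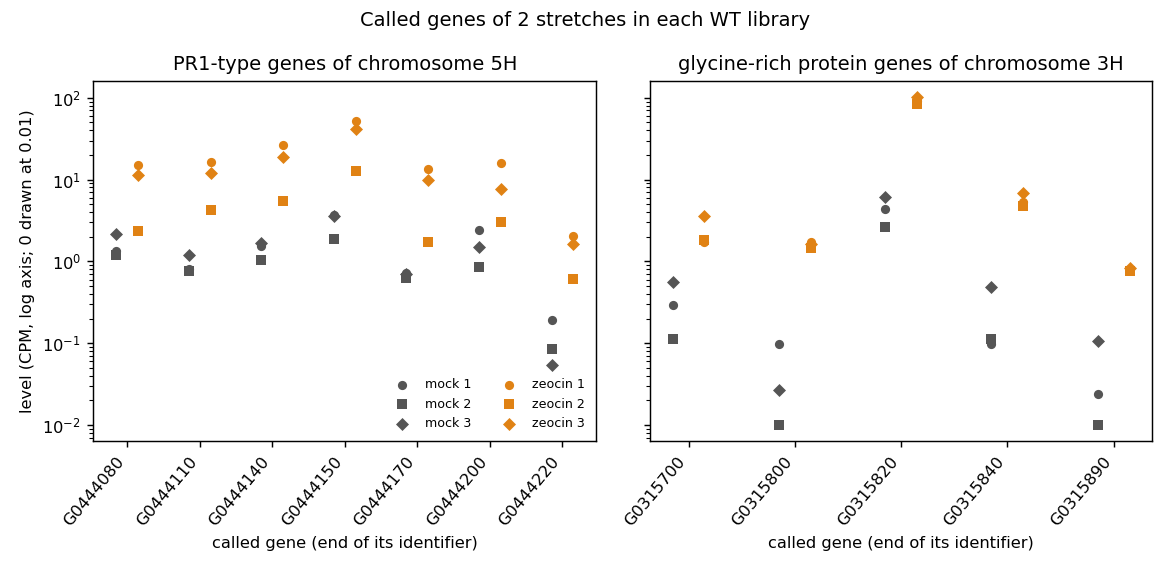
CPM (log axis) of the called genes of the 5H stretch (7 genes) and the 3H stretch (5 genes) in each WT library, grey for mock and orange for zeocin, with a circle, square and diamond for libraries 1, 2 and 3. Zeocin 2 lies below zeocin 1 and 3 in every gene of the 5H stretch, though above the mock libraries, and close to zeocin 1 and 3 on 3H.

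Other defence genes were called in part, 25% of chitinase rows and 40% of thaumatin-like genes, against 33% of all described genes. Of 8 chitinase rows, for enzymes that cut the chitin of fungal walls, 2 rose, both transcript models of HORVU.MOREX.r3.2HG0178010, by 1.37 ± 0.21 (adjusted p = 0.00314) and 1.94 ± 0.35 (adjusted p = 0.00818). With the block within genotype 6 of the 8 rows rose, with DESeq2 6 and without zeocin 2 4, and in the fit of the 6 WT libraries the second model lost its call (adjusted p = 0.0642). Of 5 thaumatin-like genes 2 rose, HORVU.MOREX.r3.5HG0423130 by 1.35 ± 0.24 (adjusted p = 0.00836) and HORVU.MOREX.r3.7HG0752040 by 1.63 ± 0.32 (adjusted p = 0.0151), and the second lost its call without mock 1 (adjusted p = 0.0649), mock 2 (0.0539) or zeocin 1 (0.0555). The first lost it in the fit of the 6 WT libraries (0.0649).

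Among transcription factors of stress families that carry a description, more genes rose than fell. The shares called were 58.3% of NAC, 62.5% of WRKY, 37.5% of MYB and 28.6% of ethylene-responsive genes, against 33% of all described genes. Of 12 tested genes described as NAC, 3 of them the SGL genes, 7 rose and none fell (median 1.35). The NAC gene HORVU.MOREX.r3.5HG0463440 had 6.25, 6.26 and 6.44 CPM in mock and 28.7, 28.4 and 21.9 CPM in zeocin (2.06 ± 0.14, adjusted p = 1.02e-05). WRKY factors, which bind W-boxes in defence promoters, rose in 5 of 8 genes (median 1.27), led by HORVU.MOREX.r3.3HG0276810 with 0.314, 0.0564 and 0.187 CPM and 3.59, 2.65 and 2.15 CPM (3.86 ± 0.44, adjusted p = 0.000515). The ethylene-responsive factor HORVU.MOREX.r3.3HG0289220 went from 6.39, 5.97 and 6.78 CPM to 41.1, 35.9 and 31.2 CPM (2.50 ± 0.14, adjusted p = 3.69e-06), 1 of 2 raised genes of 7. The heat shock transcription factor HORVU.MOREX.r3.7HG0686980 rose by 1.76 ± 0.16 (adjusted p = 0.000105), from 1.81, 2.31 and 2.16 CPM to 7.71, 7.42 and 6.18 CPM. It was the 1 called gene of 5 tested with heat shock in their description (20%). Among MYB genes 2 rose and 1 fell of 8. HORVU.MOREX.r3.1HG0017050 rose by 2.65 ± 0.44 (adjusted p = 0.00499), and the fall of HORVU.MOREX.r3.1HG0031520 (-1.13 ± 0.26, adjusted p = 0.0332) lost its call without any library other than mock 3 (adjusted p of 0.0624 to 0.151). Of the auxin response factors, which read the level of the hormone auxin, HORVU.MOREX.r3.6HG0622400 rose from 4.27, 2.76 and 5.63 CPM to 16, 13.3 and 18.4 CPM (1.91 ± 0.28, adjusted p = 0.00264). Among 9 tested genes described with SAUR or auxin, 2 rose and 1 fell (33.3% called).

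Receptor kinases rose in 16 of 57 tested genes and fell in 4, with a median of 1.14. The share called, 35.1%, was near the 33% of all described genes. The leucine-rich repeat kinase HORVU.MOREX.r3.3HG0318390 had 0.289, 0.141 and 0.107 CPM in mock and 4.01, 3.23 and 4.05 CPM in zeocin (4.35 ± 0.32, adjusted p = 1.72e-05). The G-type lectin kinase HORVU.MOREX.r3.3HG0219300 went from 3.26, 1.97 and 3.47 CPM to 30, 18.2 and 25.5 CPM (3.08 ± 0.39, adjusted p = 0.000899). The strongest fall was HORVU.MOREX.r3.4HG0383790, from 34.6, 35 and 30 CPM to 8.44, 4.96 and 8.76 CPM (-2.17 ± 0.29, adjusted p = 0.00129). The 16 rises were 10 without mock 1, 9 without mock 2, 7 without zeocin 1 and 8 in the fit of the 6 WT libraries, and the 4 falls were 2 without zeocin 1. Of 38 genes listed under protein phosphorylation on the *hvatr.g* libraries 20 rose in WT (median 1.38, 36 above 0), 12 without zeocin 1 and 11 in the fit of the 6 WT libraries. Of 11 under cell surface receptor signaling 7 rose (median 1.98). Both lists hold genes listed as raised in *hvatr.g*, so their shares called, 52.6% and 63.6%, are to be read against all genes raised there. Of those 336 genes 60.4% were called raised in WT, with 331 above 0 and a median of 1.60.

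Late embryogenesis abundant proteins, which protect cells in drying seeds, rose in 3 of 12 tested genes and fell in none (median 1.18), a share of 25% called that is below the 33% of described genes. The raised gene with the largest change was HORVU.MOREX.r3.5HG0498820 (4.10 ± 0.48, adjusted p = 0.000624). They were 7 without mock 3, 6 with DESeq2 and 5 without zeocin 3. Proteases, which cut proteins, rose in 9 of 27 tested genes and fell in 1, and 5 rose without zeocin 1. Their median was -0.10, with 13 above and 14 below 0, and the share called, 37%, was near the 33% of described genes. The subtilisin-like protease HORVU.MOREX.r3.3HG0246820 had 17.7, 13.3 and 14.7 CPM in mock and 130, 104 and 120 CPM in zeocin (2.95 ± 0.22, adjusted p = 1.93e-05). The genes HORVU.MOREX.r3.1HG0093740 and HORVU.MOREX.r3.1HG0093760, described as the ATP-dependent zinc metalloprotease FtsH, rose by 4.76 ± 0.51 (adjusted p = 0.00031) and 3.58 ± 0.30 (adjusted p = 4.19e-05). The sentrin-specific protease HORVU.MOREX.r3.5HG0431790, of the family that removes SUMO from proteins, rose from 13.1, 12.7 and 10.7 CPM to 29.5, 40.4 and 25.3 CPM (1.38 ± 0.17, adjusted p = 0.00073). Genes of cell wall growth were mostly not called. Of 10 expansins, which loosen the wall, 2 fell and 8 were not called (median -0.16), and neither fall was called in the fit of the 6 WT libraries, without mock 2 or without zeocin 3. Of 6 arabinogalactan protein genes 2 fell, HORVU.MOREX.r3.4HG0406670 from 48.1, 56.2 and 68.4 CPM to 23.3, 22.9 and 28.8 CPM (-1.20 ± 0.15, adjusted p = 0.000756) and HORVU.MOREX.r3.2HG0186770 by -1.04 ± 0.13 (adjusted p = 0.000723), which reached -0.98 without zeocin 2. None of 7 xyloglucan endotransglucosylase and 8 dirigent genes was called.

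Markers of tissue identity moved in both directions. A gene described as a Scarecrow factor (HORVU.MOREX.r3.7HG0642830) fell from 22.5, 20.3 and 22 CPM to 8.55, 3.64 and 7.62 CPM (log2 fold change -1.71, adjusted p = 0.0161), and another (HORVU.MOREX.r3.7HG0663990) rose from 11.4, 8.59 and 8.97 CPM to 22.6, 19.3 and 16.6 CPM (1.01, adjusted p = 0.0116). The AP2-like factor HORVU.MOREX.r3.1HG0058550, of the family that holds the root meristem regulators PLETHORA, fell from 11.8, 13.5 and 11.3 CPM to 5.27, 5.43 and 7.60 CPM (adjusted p = 0.0165, with a log2 fold change at the threshold of -1). The gene described as Scarecrow-like 3 (HORVU.MOREX.r3.5HG0460950) rose from 0.627, 0.564 and 0.374 CPM to 1.71, 2.56 and 1.57 CPM (1.89 ± 0.28, adjusted p = 0.00249). Of these 4 markers 1 was called lowered, in place of 2, without mock 1, mock 2, zeocin 1 or zeocin 2, and 1 raised, in place of 2, without mock 2, mock 3 or zeocin 1. The summed level of the 4 tested root apex markers was 42.7 to 46.3 CPM in mock and 30.9 to 38.1 CPM in zeocin, and that of the 6 markers of differentiated root 92.3 to 103 CPM and 78.3 to 81.6 CPM. Seed markers were taken by words of the description, such as globulin, and 3 were tested. The gene described as basic 7S globulin (HORVU.MOREX.r3.3HG0307850) rose from 68.3, 62.0 and 109 CPM to 238, 256 and 286 CPM (1.71, adjusted p = 0.00031). It was thus already present in mock root tips, and whether it marks seed tissue was not tested. The other seed markers stayed at or below 1.27 CPM in all libraries. The part of such shifts in the other results was not tested.

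The genes with the largest fitted changes were low in one of the groups. HORVU.MOREX.r3.7HG0736330, described as ubiquitin hydrolase, had 0.0241, 0.113 and 0.0267 CPM in mock and 8.75, 12.1 and 4.86 CPM in zeocin (7.27 ± 0.70, adjusted p = 0.000142), and its tested neighbours on 7H rose as well, HORVU.MOREX.r3.7HG0736310 by 4.34 ± 0.26 (adjusted p = 4.09e-06) and HORVU.MOREX.r3.7HG0736350 by 1.91 ± 0.30 (adjusted p = 0.00363). The NTP hydrolase gene HORVU.MOREX.r3.6HG0578460, with 0.0482, 0.0282 and 0.187 CPM in mock and 10, 12.5 and 11.9 CPM in zeocin, rose by 6.99 ± 0.55 (adjusted p = 2.56e-05). Among genes with a small adjusted p, HORVU.MOREX.r3.1HG0025830, described as a Ty3 retrotransposon protein, rose from 0.651, 0.704 and 0.988 CPM to 38.3, 34.9 and 36.5 CPM (5.55 ± 0.23, adjusted p = 1.61e-07), and HORVU.MOREX.r3.3HG0254160, described as a restriction of telomere capping protein, from 0.482, 0.282 and 0.294 CPM to 15.1, 14.2 and 10.6 CPM (5.21 ± 0.30, adjusted p = 3.69e-06). HORVU.MOREX.r3.3HG0321170, described as an orotate phosphoribosyltransferase, went from 14.5, 13.2 and 16.9 CPM to 61.4, 65.8 and 52.7 CPM (2.01 ± 0.12, adjusted p = 4.08e-06). On 4H, 3 neighbours rose together, the cation exchanger HORVU.MOREX.r3.4HG0337640 by 3.68 ± 0.38 (adjusted p = 0.000281), HORVU.MOREX.r3.4HG0337650 by 5.34 ± 0.32 (adjusted p = 4.09e-06) and HORVU.MOREX.r3.4HG0337660 by 4.83 ± 0.38 (adjusted p = 2.56e-05). Of the falls, the O-methyltransferase HORVU.MOREX.r3.1HG0012420 varied widely within mock, with 8.35, 14.5 and 0.748 CPM against 0.0841, 0.138 and 0.0253 CPM in zeocin (-6.55 ± 1.23, adjusted p = 0.0111). It was not called without zeocin 1 (adjusted p = 0.0693). HORVU.MOREX.r3.2HG0096970 had 0.458, 0.817 and 0.454 CPM in mock and no count in zeocin, with a group mean at least 7.12-fold lower by the same floor of 3 counts.

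How strongly the 6 libraries carried the response was read from genes that had been called in *hvatr.g*, whose libraries they do not share. Of 336 genes raised in *hvatr.g*, 331 were above 0 in WT with a median of 1.60, and 203 were called raised in WT, which is 60.4% of that list and 69.5% of the WT list. Of 559 genes lowered there, 544 were below 0 in WT with a median of -0.99, and 218 were called lowered, 39% of that list and 92.8% of the WT list. The background was 50.8% of all tested genes above 0, and 1.29% raised and 2.15% lowered in *hvatr.g*. No gene was called in opposite directions. In *hvatr.g* itself the medians were 1.85 and -1.77, which the choice of these genes raises. The median of the raised genes over the mean of the mock libraries was 1.69 in zeocin 1, 1.61 in zeocin 2 and 1.44 in zeocin 3, against -0.15 to 0.09 in the mock libraries. For the lowered genes it was -1.07, -1.14 and -0.81 against -0.11 to 0.09. Zeocin 3 was thus the library nearest to mock in both sets, and without it 328 genes were called raised and 296 lowered. Set against the mock library of its own number, zeocin 3 differed by 1.33 and -0.94, and the other pairs by 1.59 and 1.76, and by -0.92 and -1.19.

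**Figure D5:**
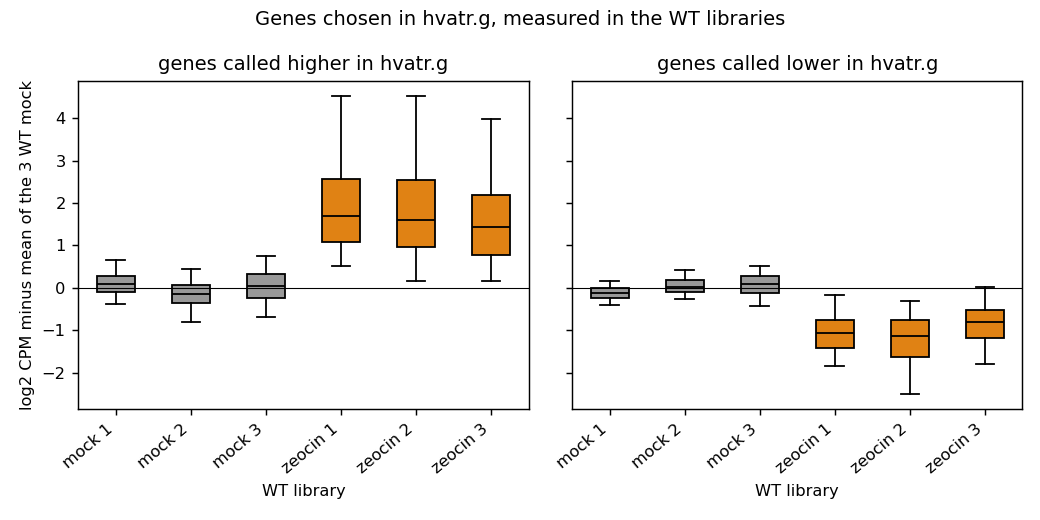
Boxes show, for each WT library, log2 CPM minus the mean of the 3 mock libraries over the genes raised (left) and lowered (right) in *hvatr.g*, with the median as a line, the quartiles as the box and the 5th and 95th percentiles as whiskers. Medians of the zeocin libraries lie from 1.44 to 1.69 on the left and from -1.14 to -0.81 on the right, with zeocin 3 the nearest to 0 in both, and 1 gene not reported here is left out.

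By edgeR, the difference between the WT and the *hvatr.g* response was not called for any gene at an adjusted p under 0.05. The lowest adjusted p was 0.149. An unadjusted p under 0.05 was found for 1120 genes (4.30%), a share below the 0.05 that would pass with no difference in any gene. The same difference was called for 120 genes with DESeq2, for 33 without the filter on low counts and for 1 with limma-voom. Values of single genes are therefore given side by side only. POLD4.A changed by -2.04 in WT and by -3.93 in *hvatr.g*, the kinesin HORVU.MOREX.r3.2HG0174320 by -2.22 and -4.05, TSO2 by 1.69 and 2.51, SGL.C by 3.70 and 2.14, and the glycosyltransferase HORVU.MOREX.r3.3HG0282740 by 3.83 and 2.01.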

How the data were processed

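Root tips of wild type and *hvatr.g*, mock or zeocin, were sequenced as poly(A) RNA in 3 biological replicates a group. The deposited values are raw read counts per transcript model: the authors trimmed the reads, mapped them with HISAT2 2.1.0 to the Morex V3 genome and assigned them with Subread 1.5.2. Strand and multi-mapping settings are not given in the sources used here, so reads of near-identical or overlapping genes may be assigned to either. All 12 libraries, from 36100439 counts upward in WT, entered 1 fit with edgeR 4.0.16 in R 4.3.3 (filterByExpr, TMM scaling, quasi-likelihood test, Benjamini-Hochberg adjustment over 26039 rows). Every adjusted p comes from it unless another fit is named, and values after ± are standard errors, the log2 fold change divided by the root of the F statistic. Calls required an adjusted p below 0.05 together with a change of 1 or more on the log2 scale. For single values, an exact two-sided permutation test of 3 against 3 cannot go below 0.1, so none was used. The fit was tested on simulated data.

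The members and lists were chosen with earlier results of these data known. Named genes were the called genes of the DDR catalogue and its ATM, ATR, WEE1, SOG1 and SGL genes, the 8 called genes of smallest adjusted p and the 4 of largest fold in each direction, and in each list up to 4 called members of smallest adjusted p with its extremes. Neighbouring called genes and tissue markers were added. Lists other than the catalogue rest on descriptions or gene ontology terms in the supplement of the study, which cover 526 of the 527 called but 1593 of all tested genes. The genes called in *hvatr.g* come from other libraries but share the scaling and the dispersion of the fit. 1 called gene of the catalogue is not reported here.

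Deviations from the group means correlated at 0.31, 0.38 and 0.54 between WT libraries of equal number and at -0.42 to 0.18 between others, so libraries of equal number go together in WT. The reported fit has no block, and the block enters only as an alternative. In *hvatr.g* the values were 0.18, 0.03 and 0.17. Alternatives were other scalings, no filter, DESeq2 1.42.0, limma-voom (limma 3.58.1), the 6 WT libraries alone, replicate number as a block, overall or within each genotype, rows summed to genes, and each WT library left out in turn.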

Additional observations from a re-analysis of the deposited data

How the results depend on the processing

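The 292 raised and 235 lowered genes kept their counts within 1.5 times with other scalings, no filter, DESeq2, limma-voom, summed rows and both blocks. The exceptions were 190 raised genes with the 6 WT libraries fitted alone and the fits with 1 library left out, where raised genes ran from 205 to 328 and lowered genes from 125 to 296. The difference between genotypes, called for 0 genes, was called for 33 without the filter, 120 with DESeq2, 1 with limma-voom and 0 with any WT library left out; the cause was not tested. With replicate number as a block 317 genes rose and 254 fell, and with the block within each genotype 344 and 306, of which 279 and 227 were shared with the calls reported. Among 218 genes examined, the block within genotype ended 4 calls and added 9, and changed no other. Of the 152 called among them, 109 kept their call in all 15 alternatives that could be fitted.

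Among these 218 genes, signs turned only in genes that were not called. With a WT library left out, PCNA2.D ran from -0.28 to 0.27 (-0.01 with limma-voom), ATM from -0.32 to 0.15, ATR from -0.29 to 0.01, HORVU.MOREX.r3.7HG0703570 from -0.54 to 0.10, HORVU.MOREX.r3.3HG0318870 from -0.06 to 0.38, HORVU.MOREX.r3.1HG0073730 from -0.03 to 0.31, HORVU.MOREX.r3.2HG0108920 from -0.47 to 0.21, HORVU.MOREX.r3.3HG0325810 from -0.10 to 0.79 and HORVU.MOREX.r3.6HG0620410 from -0.63 to 0.67. Depth limits genes up to 1.53 CPM, where the median standard error was 0.489, against 0.135 in genes above 35.4 CPM.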
